A study of Mus musculus with 7 samples.

Results

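Axon guidance ligands and receptors are the secreted and membrane proteins that steer growing axons and, in the adult brain, act at synapses, in myelin-forming cells and in blood vessels. All genes of the deposited count table whose names begin with or equal the semaphorin, plexin, neuropilin, Slit, Robo, netrin, netrin-G, Dcc, Unc5, Eph and ephrin symbols were taken, which gave 74 genes of 55367. These comprised 37 ligands, 34 receptors and 3 antisense transcripts named after Plxna4. RNA-seq libraries labelled CRS (n = 4) and noCRS (n = 3) were compared. Both groups were C57BL/6J mice labelled P90, and the libraries were labelled mPFC-LHB projection neurons, that is, neurons running between medial prefrontal cortex and lateral habenula. The labels give the treatment only as CRS or noCRS, and the series title places the study under chronic stress and depression. The sources used here do not say how the neurons were marked and collected, or whether the libraries are from different animals. The p-values therefore cover only the spread among these 7 libraries, some or all of which may be technical.

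In these pathways a ligand on or released by 1 cell binds a receptor on another and changes its cytoskeleton. Semaphorins signal through plexins, with neuropilins as co-receptors for most secreted class 3 semaphorins. Slits signal through Robo receptors, and netrins through Dcc and the Unc5 receptors. Ephrin-A ligands are tethered to the membrane by a lipid anchor and prefer EphA receptors, while ephrin-B ligands span the membrane and prefer EphB receptors. Several semaphorins and their plexin-B receptors are also known from cells of the oligodendrocyte lineage.

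Library totals ran from 32346275 to 39740623 counts in CRS and from 28677703 to 39965667 counts in noCRS. Levels are given as CPM, counts scaled to a common library size, after TMM scaling, a trimmed-mean adjustment for library composition. Levels of different genes are compared only as CPM per kilobase of exon. A floor of 3 counts over the 3 noCRS libraries together corresponded to 0.0286 CPM, and such floors reflect counting error alone because amplified reads are not separate molecules. The spread between libraries was wide (biological coefficient of variation 0.919). CRS replicate 2 stood apart on the first principal component and had the fewest members with a count, 49 of 74, against 69 in CRS replicate 4. Without CRS replicate 2, edgeR still called 0 members. The labelled cell type was checked against 8 markers of cortical excitatory neurons. Their summed level was 496 to 747 CPM in CRS and 20.1 to 39.9 CPM in noCRS. Slc17a7, the vesicular glutamate transporter that defines these neurons, averaged 10.1 ± 2.79 CPM in CRS (SD, n = 4) and 0.201 ± 0.348 CPM in noCRS (SD, n = 3), where 2 of 3 libraries had no count. Markers of myelinating oligodendrocytes summed to 26979 to 53265 CPM in CRS and 32642 to 38023 CPM in noCRS, so both groups held abundant glial RNA. In bulk libraries, fewer cells of a type and less RNA per cell cannot be told apart.

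No axon guidance ligand or receptor passed the test between CRS and noCRS. Of the 74 members, 60 passed edgeR's filter on low counts. EdgeR's quasi-likelihood test, Benjamini-Hochberg adjusted over all 17833 genes, called 0 of these 60 at an adjusted p below 0.05, whereas 2.3% of all genes tested were called (2.07% higher and 0.23% lower in CRS). The smallest adjusted p among members was 0.0738. At an unadjusted p below 0.05 there were 6 members, which is 10% of those tested, against 13.6% of all genes. Of these, 5 were higher in CRS (9.67% of all genes) and 1 was lower (3.91% of all genes). Epha6 and Slit3, among the 5, had no count in noCRS and passed the filter only through CRS. DESeq2 gave an adjusted p for 60 members, of which 58 were among those tested by edgeR. It called 5 of them, Epha4, Epha6, Ntng1 and Slit3 higher and Sema6a lower, and 9.14% of all genes with an adjusted p. Limma-voom called 0 members. Groups did not overlap for 11 members, 4 higher and 7 lower in CRS, which is 18.3% against 16.9% of all genes (10.1% higher and 6.74% lower). The median log2 fold change over the 60 members was -0.11, against -0.02 over all genes, with 27 positive and 33 negative. The members' shares past these criteria thus lay near those of all genes, and the values below describe levels.

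**Figure D1:**
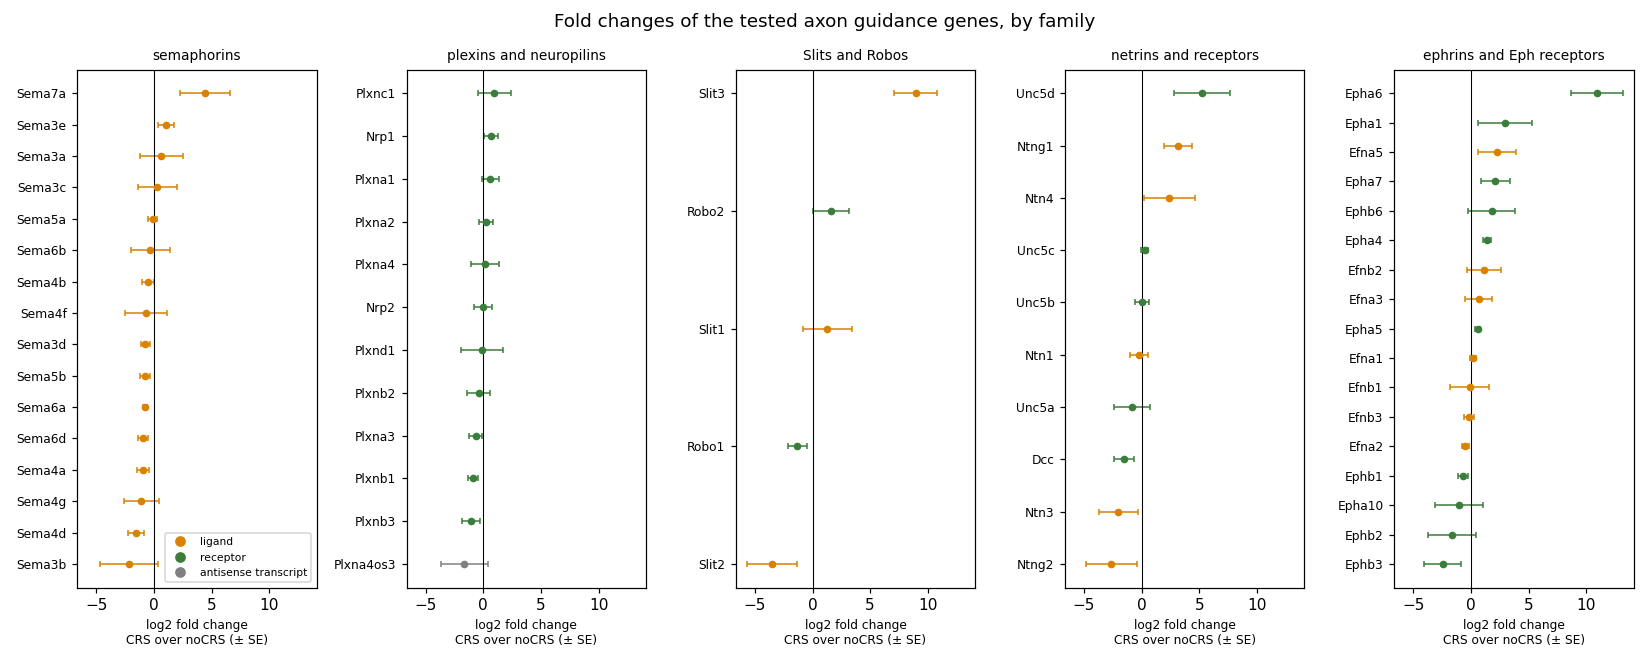
Log2 fold change of CRS over noCRS (x axis, ± SE from the edgeR F statistic) for the 60 tested members in 5 families. Ligands are in orange, receptors in green and the antisense transcript in grey. Of the 16 semaphorins 12 lie below 0, while 5 of the 6 tested EphA receptors lie above 0, against 49.2% of all genes above 0. Epha6 and Slit3, which had no count in noCRS, passed the filter only through CRS, and their positions depend on the prior count.

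Semaphorins, as a family, were at a lower summed level in every CRS library than in any noCRS library. The sum over all 20 semaphorin genes was 32.8, 25.2, 41.2 and 37.9 CPM per kb in CRS replicates 1 to 4, against 59.4, 58.9 and 53.0 CPM per kb in noCRS replicates 1 to 3. Means were 34.3 ± 6.98 (SD, n = 4) in CRS and 57.1 ± 3.55 (SD, n = 3) in noCRS. The transmembrane classes 4 and 6 were also each lower. Class 4 summed to 3.85 to 11.8 CPM per kb in CRS and 16.6 to 21.9 in noCRS, and class 6 to 7.48 to 11.7 in CRS and 14.4 to 20.9 in noCRS. With classes 4 and 6 left out, the remaining 10 semaphorins summed to 13.7 to 18.3 CPM per kb in CRS and 18.9 to 22.01 in noCRS, also without overlap. Secreted class 3 semaphorins overlapped between the groups (5.75 to 10.6 CPM per kb in CRS, 8.31 to 14.1 in noCRS). The order of the groups in the family, class 4 and class 6 sums was the same with DESeq2 size factors and with library totals alone.

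Gene by gene, 12 of the 16 tested semaphorins had negative log2 fold changes (median -0.73), while 49.2% of all genes had positive ones. EdgeR called 0 of these semaphorins. A single gene, Sema6a, had an unadjusted p below 0.05 and was called by DESeq2, and limma-voom called 0. Sema6a, a transmembrane ligand of plexin-A receptors, lies on chromosome 18 (47235598 to 47368870, minus strand, GRCm38). Its level was 62.5, 46.1, 59.6 and 41.8 CPM in CRS and 99.6, 89.1 and 82.1 CPM in noCRS. The groups did not overlap, and all CRS values lay below the lowest noCRS library. The log2 fold change was -0.78 ± 0.21 (SE), with an unadjusted p of 0.00572 and an edgeR adjusted p of 0.123. Sema6d, the other abundant class 6 ligand, measured 41.0, 17.3, 44.7 and 51.0 CPM in CRS and 99.4, 82.8 and 38.9 CPM in noCRS. Here noCRS replicate 3 fell among the CRS values (edgeR adjusted p = 0.393).

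Sema4d, the ligand of plexin-B1 (chromosome 13, 51685529 to 51793747, minus strand), measured 36.8, 3.18, 42.9 and 24.4 CPM in CRS and 66.4, 106 and 64.5 CPM in noCRS. Groups did not overlap, but the CRS libraries ranged widely, with replicate 2 by far the lowest (log2 fold change -1.56 ± 0.68 SE, edgeR adjusted p = 0.369). Sema4a, of the same class, measured 5.53, 8.74, 19.8 and 12.4 CPM in CRS and 22.05, 24.8 and 21.5 CPM in noCRS. It was likewise lower in every CRS library (edgeR adjusted p = 0.47). All 5 tested class 4 members had negative fold changes, and the groups overlapped for the other 3, Sema4b, Sema4f and Sema4g. Without Sema4d the class 4 sum overlapped (3.36 to 8.59 CPM per kb in CRS, 8.1 to 10.7 in noCRS), and without Sema6a the class 6 sum did too (2.23 to 5.16 in CRS, 5.06 to 9.57 in noCRS).

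Gene by gene, each of the other tested semaphorins overlapped between the groups. Sema3d, the most abundant secreted semaphorin here, averaged 40.7 ± 13.6 CPM in CRS and 68.8 ± 27.3 CPM in noCRS (edgeR adjusted p = 0.456). Sema5a and Sema5b, ligands with thrombospondin repeats, averaged 43.2 ± 19.8 and 27.7 ± 13.4 CPM in CRS and 46.4 ± 14.9 and 47.3 ± 6.38 CPM in noCRS. Sema3e, the ligand of plexin-D1, went the other way, at 27.1, 8.02, 20.8 and 19.0 CPM in CRS and 13.0, 2.86 and 11.8 CPM in noCRS, with overlap. Sema7a, the lipid-anchored member, had 134, 0, 77 and 24 counts in CRS and 6, 3 and 0 counts in noCRS (edgeR adjusted p = 0.447), so 1 CRS library had none. Sema3a, the repulsive ligand of neuropilin-1, was present in all CRS libraries (2.15 to 6.01 CPM), while noCRS replicates 1 to 3 held 0, 252 and 1 counts.

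Markers of oligodendrocyte precursors were also lower in CRS as a summed list. All 8 markers in that list had negative fold changes and 3 were called lower (Cspg4, C1ql1 and Gpr17). Groups did not overlap for 5 of the 8, and overlapped for Pdgfra, Lhfpl3 and Vcan. The list summed to 1278 to 1771 CPM in CRS and 2176 to 2574 CPM in noCRS, with no marker at 0 in any library. Within CRS, replicate 2 had the lowest semaphorin sum and the highest precursor sum. Pdgfra alone made up 975 of the 1771 CPM in that library. Among CRS libraries, C1ql1 and Gpr17 were lowest in replicate 2, while Pdgfra, Cspg4, Olig2 and Lhfpl3 were highest there. The myelinating oligodendrocyte list overlapped between the groups, with 3 of 7 markers positive, 4 negative and a smallest edgeR adjusted p of 0.71. The part of precursor RNA in the semaphorin levels was not tested.

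**Figure D2:**
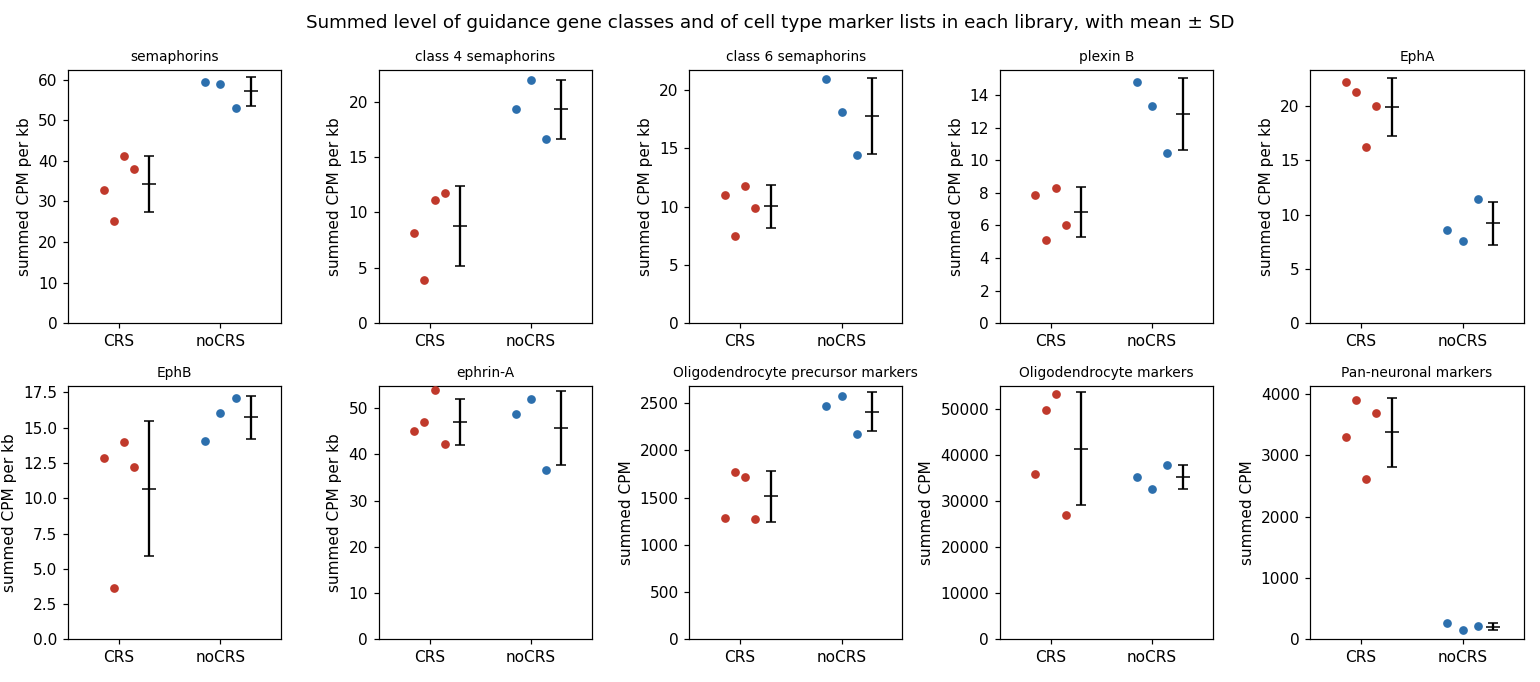
Summed level in each library (points, CRS left and noCRS right; bars are mean ± SD, n = 4 and 3) for 7 guidance gene groups in CPM per kb and 3 cell type marker lists in CPM. Semaphorins, their classes 4 and 6, plexin B, EphB and the oligodendrocyte precursor markers are lower in all CRS libraries, and EphA (16.2 to 22.3 in CRS, 7.56 to 11.4 in noCRS) and the pan-neuronal markers are higher.

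Among the semaphorin receptors the plexin-B group was lower in CRS, whereas plexin-A receptors and neuropilins overlapped. Over Plxnb1, Plxnb2 and Plxnb3, the sum was 7.89, 5.12, 8.28 and 6.01 CPM per kb in CRS and 14.8, 13.3 and 10.4 CPM per kb in noCRS, in the same order of groups under all 3 scalings. Without Plxnb3, or without Plxnb1, the sum of the other members overlapped. The oligodendrocyte precursor sum was also lower in every CRS library. Within CRS, replicate 2 had the lowest plexin-B sum and the highest precursor sum, of which Pdgfra was the largest part. The part of precursor RNA in the plexin-B levels was not tested. Plxnb1, the Sema4d receptor, measured 13.0, 21.1, 9.77 and 24.4 CPM in CRS and 38.1, 22.1 and 34.2 CPM in noCRS, so CRS replicate 4 lay above the lowest noCRS library (edgeR adjusted p = 0.424). Plxnb3, a plexin known from oligodendrocytes, measured 42.1, 2.90, 41.4 and 13.2 CPM in CRS and 60.0, 62.1 and 33.0 CPM in noCRS (edgeR adjusted p = 0.683). CRS replicate 2 was the lowest for Plxnb3, as it was for Sema4d and Sema6d.

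Plexin-A receptors, which serve class 3 and class 6 ligands, summed to 2.34 to 5.97 CPM per kb in CRS and 3.09 to 4.47 in noCRS. Plxna3 measured 15.8, 13.6, 5.18 and 5.03 CPM in CRS and 13.5, 13.999 and 19.6 CPM in noCRS (edgeR adjusted p = 0.767). Within CRS its values formed a high and a low pair. Nrp1 and Nrp2, the class 3 co-receptors, averaged 15.1 ± 5.45 and 5.78 ± 2.90 CPM in CRS and 9.55 ± 6.30 and 5.87 ± 1.66 CPM in noCRS. This family had 12 tested genes, of which 1 was the antisense transcript Plxna4os3. Among them edgeR, DESeq2 and limma-voom each called 0, and 0 had an unadjusted p below 0.05 in edgeR. Antisense genes overlap 2.68% of the Plxnb1 and 10.7% of the Plxna1 exon length, and without strand marks such reads cannot be told apart.

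EphA receptors showed the opposite order, with a higher summed level in every CRS library. EphA receptors are tyrosine kinases that bind ephrin-A on neighbouring cells and, in forebrain, take part in axon topography and in contacts between dendritic spines and astrocytes. Their sum was 22.3, 21.3, 16.2 and 19.997 CPM per kb in CRS and 8.57, 7.56 and 11.4 CPM per kb in noCRS, with means of 19.9 ± 2.65 in CRS (SD, n = 4) and 9.18 ± 2.001 in noCRS (SD, n = 3). The order was kept with DESeq2 size factors and with library totals alone. Leaving out both of its abundant members, Epha4 and Epha5, the other 7 genes summed to 4.87 to 6.77 CPM per kb in CRS and 0.0568 to 3.18 in noCRS. Of the 6 tested EphA genes 5 had positive fold changes, against 49.2% of all genes. An unadjusted p below 0.05 was found for 3, against 13.6% of all genes. Of these 3, Epha6 had counts in CRS alone and passed the filter only through those libraries. Its positive sign was thus fixed by how it entered the test, and it is part of both counts. Epha1 was positive mainly through CRS replicate 2, at 10.7 CPM. Epha2, outside the test, had 49 counts in CRS replicate 4 and 198 in noCRS replicate 3. EdgeR called 0 of the 6 tested EphA genes, DESeq2 2 and limma-voom 0.

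Epha4, a receptor that binds both ephrin classes, lies on chromosome 1 (77367185 to 77515088, minus strand). It measured 59.1, 37.6, 34.1 and 66.6 CPM in CRS and 14.9, 17.6 and 23.4 CPM in noCRS. Each CRS value was above each noCRS value (log2 fold change 1.41 ± 0.35 SE, edgeR adjusted p = 0.0874). Epha5, the most abundant EphA gene here (chromosome 5, 84054761 to 84417382, minus strand), measured 165, 165, 119 and 103 CPM in CRS and 95.5, 89.0 and 89.5 CPM in noCRS. The 3 noCRS libraries were close together and the CRS libraries above them by a small margin at the low end (log2 fold change 0.59 ± 0.21 SE, edgeR adjusted p = 0.234).

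Epha6, a receptor known from cortical and retinal neurons (chromosome 16, 59653483 to 60605531, minus strand), had 112, 485, 270 and 11 counts in CRS and 0 in all 3 noCRS libraries. In CPM these were 3.38, 15.1, 8.91 and 0.287 in CRS. Over all 7 libraries its CRS mean was at least 243-fold higher than the noCRS group floor (edgeR adjusted p = 0.0738). Without CRS replicate 2 the mean was at least 147-fold higher than that floor. Epha6 then no longer passed edgeR's filter and was not tested, which was also so without CRS replicate 1 or 3. Zeros were common, with 1 or more libraries at 0 for 45% of tested members and 26.7% of all genes in the test. Epha7 measured 39.9, 11.7, 31.3 and 40.8 CPM in CRS and 5.72, 0.0321 and 15.6 CPM in noCRS, where 1 library held a single count. Its groups overlapped only through CRS replicate 2 and noCRS replicate 3 (edgeR adjusted p = 0.575).

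Pan-neuronal markers, as a summed list, were also higher in every CRS library. All 5 had positive fold changes and 3 were called higher (Snap25, Syt1 and Stmn2), while the groups overlapped for Tubb3. Sums were 2619 to 3905 CPM in CRS and 148.5 to 262 CPM in noCRS. Snap25 made up most of them, averaging 2747 CPM in CRS and 158 CPM in noCRS. The list of 8 cortical excitatory markers was also positive throughout, with 3 called higher (Nrgn, Neurod6 and Sv2b) and Camk2a overlapping between the groups. In noCRS, Slc17a7, Neurod2 and Tbr1 each had counts in 1 of 3 libraries. Of the 5 tested interneuron markers, 2 were called higher (Gad1 and Sst), and Vip was higher without overlap. Gad2 was positive with overlap, and Pvalb was level (log2 fold change 0.015). Sums over the list were 150.2 to 661 CPM in CRS and 34.6 to 37.5 CPM in noCRS. Sst held 398 of the 661 CPM, which was the sum in CRS replicate 2. Slc32a1, the inhibitory vesicular transporter and the sixth in that list, was outside the test, with 0, 0, 4 and 4 counts in CRS and 0 in each noCRS library. Whether neuronal RNA accounts for the EphA levels was not tested.

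The start regions of Epha4, Epha5 and Epha6 are printed because these 3 receptors of 1 class stood higher in every CRS library. They are RefSeq sequences on GRCm38.p6, 250 bases before to 50 bases after the annotated start, read 5′ to 3′ on the minus strand, with each CG dinucleotide in capitals.
Epha4 (chr1:77515039-77515338): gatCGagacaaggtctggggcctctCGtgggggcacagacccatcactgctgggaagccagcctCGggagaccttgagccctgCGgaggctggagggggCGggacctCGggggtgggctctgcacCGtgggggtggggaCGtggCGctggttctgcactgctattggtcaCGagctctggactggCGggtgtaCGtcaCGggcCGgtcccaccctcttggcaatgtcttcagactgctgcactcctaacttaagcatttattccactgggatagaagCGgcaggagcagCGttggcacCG
Epha5 (chr5:84417333-84417632): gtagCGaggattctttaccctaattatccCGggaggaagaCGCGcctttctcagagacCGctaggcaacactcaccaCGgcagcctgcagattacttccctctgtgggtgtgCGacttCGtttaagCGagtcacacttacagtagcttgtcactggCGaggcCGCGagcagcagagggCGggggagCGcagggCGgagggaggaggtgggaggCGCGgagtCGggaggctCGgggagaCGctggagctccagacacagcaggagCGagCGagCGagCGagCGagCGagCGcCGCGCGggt
Epha6 (chr16:60605482-60605781): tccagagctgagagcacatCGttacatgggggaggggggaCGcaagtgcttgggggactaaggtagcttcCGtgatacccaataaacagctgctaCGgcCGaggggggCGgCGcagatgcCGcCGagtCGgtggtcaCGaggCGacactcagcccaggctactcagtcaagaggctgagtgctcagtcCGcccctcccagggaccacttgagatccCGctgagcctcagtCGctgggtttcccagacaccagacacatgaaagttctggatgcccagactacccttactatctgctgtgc
They hold 17, 30 and 15 CG dinucleotides. Over the 61 members found in the RefSeq promoter table, with 77 start regions, the median was 19, against 7 over 32851 start regions of all genes. At least 15 CG were found in 62.3% of the members' regions and in 34.6% of all regions. These counts describe the sequence only.

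EphB receptors and the ephrins gave a different picture from EphA. EphB genes summed to 12.8, 3.65, 14.02 and 12.3 CPM per kb in CRS and 14.08, 16.03 and 17.1 CPM per kb in noCRS. CRS replicate 3 and noCRS replicate 1 were nearly equal, and CRS replicate 2 lay far below the rest. Ephb1 held 76.7% of that level in CRS and 84.1% in noCRS. It measured 58.5, 19.3, 82.8 and 69.1 CPM in CRS and 76.5, 91.8 and 109.8 CPM in noCRS (edgeR adjusted p = 0.596). Without Ephb1 the other EphB genes averaged 2.49 ± 1.496 CPM per kb in CRS and 2.50 ± 0.928 in noCRS.

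Efna1 (chromosome 3, 89271733 to 89281142, minus strand) had the highest level per length of the 74 members, at 29.6 CPM per kb in CRS and 26.4 in noCRS. This lipid-anchored ligand measured 52.6, 57.1, 64.4 and 42.4 CPM in CRS and 47.1, 62.9 and 34.9 CPM in noCRS, with the groups interleaved (log2 fold change 0.16 ± 0.27 SE, edgeR adjusted p = 0.897). Efna2, the next in level, measured 31.9, 27.9, 33.6 and 15.8 CPM in CRS and 44.1, 34.1 and 37.0 CPM in noCRS. Its groups were separated by a narrow gap between CRS replicate 3 and noCRS replicate 2 (edgeR adjusted p = 0.638). Efna5, a ligand of Epha5 and other EphA receptors, measured 1.09, 7.18, 11.4 and 42.3 CPM in CRS and 6.27, 3.69 and 0 CPM in noCRS, and its higher mean in CRS came mainly from replicate 4. As a class, ephrin-A genes summed to 42.3 to 53.9 CPM per kb in CRS and 36.6 to 51.9 in noCRS, so the ligands of the EphA receptors overlapped where the receptors did not. That contrast between ligand and receptor levels was not tested.

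**Figure D3:**
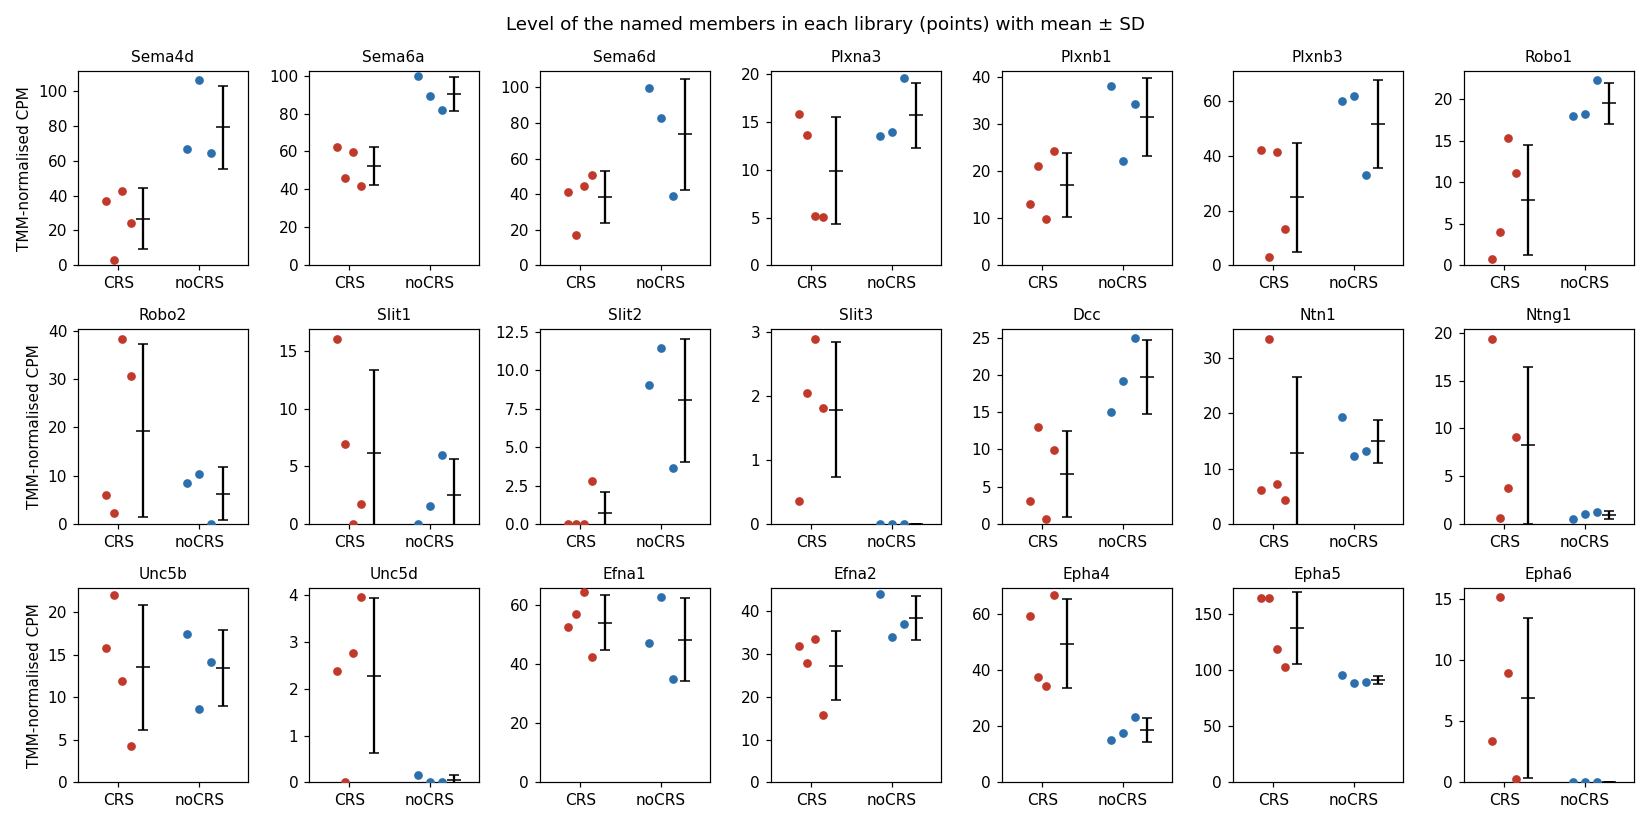
Level of the 21 named members in TMM-normalised CPM (y axes from 0; bars are mean ± SD, n = 4 CRS on the left and n = 3 noCRS on the right, cut at 0 where the SD exceeds the mean). Epha4, Epha5, Epha6 and Slit3 are higher and Sema6a, Sema4d, Slit2, Robo1, Dcc and Efna2 lower in all CRS libraries than in any noCRS library, while the others overlap.

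Slit2 and Slit3 lay in opposite order between the groups. Slits are large secreted glycoproteins that repel axons through Robo receptors. Slit3 (chromosome 11, 35121224 to 35708507, plus strand) had 12, 66, 88 and 70 counts in CRS and 0 in every noCRS library. These were 0.362 to 2.91 CPM in CRS, and Slit3 passed the filter only through those libraries. The CRS mean was at least 62.6-fold higher than the noCRS group floor (edgeR adjusted p = 0.0756). Without CRS replicate 3 that mean was at least 49.6-fold higher (edgeR adjusted p = 0.14). Over single left-out libraries the edgeR adjusted p of Slit3 ran from 0.0896 to 0.23. Slit2 (chromosome 5, 47983138 to 48307733, plus strand) showed the reverse, with 0, 0, 0 and 107 counts in CRS and 375, 357 and 119 counts in noCRS. In CPM the sole CRS library with counts, replicate 4, stood at 2.79, below the noCRS values of 9.05, 11.5 and 3.67 (log2 fold change -3.52 ± 2.18 SE, edgeR adjusted p = 0.598). Without CRS replicate 4 all remaining CRS libraries were at 0, and the fitted value of -11.08, which depends on the prior count, had an edgeR adjusted p of 0.0635. Whether Slit2 and Slit3 differed in response was not tested. Slit1 measured 16.1, 6.96, 0 and 1.69 CPM in CRS and 0, 1.57 and 6.01 CPM in noCRS, with a library at 0 in each group. Markers of mural cells summed to 139 to 446 CPM in CRS and 42.6 to 131 CPM in noCRS, with 3 of 6 positive. That separation came from Rgs5 alone (256 ± 126 CPM in CRS, 39.9 ± 30.01 CPM in noCRS, edgeR adjusted p = 0.139). Without Rgs5 the list overlapped, at 31.1 to 65.9 CPM in CRS and 36.0 to 66.5 CPM in noCRS.

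Robo1 and Robo2, the neuronal Slit receptors, are neighbours on chromosome 16, 845.7 kb apart, and their means lay in opposite order. Robo1 measured 0.815, 4.06, 15.4 and 11.1 CPM in CRS and 18.0, 18.2 and 22.3 CPM in noCRS, lower in every CRS library (edgeR adjusted p = 0.613). Robo2 measured 5.92, 2.18, 38.4 and 30.6 CPM in CRS and 8.54, 10.3 and 0 CPM in noCRS (edgeR adjusted p = 0.8). For both receptors CRS replicates 3 and 4 stood above replicates 1 and 2. Robo1 made up 27.2% of the summed Robo level in CRS and 76.1% in noCRS. The difference between the 2 receptors was not tested.

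Netrin pathway genes gave no clear order between the groups. Ntn1, the secreted guidance cue, measured 6.07, 33.4, 7.26 and 4.35 CPM in CRS and 19.4, 12.2 and 13.2 CPM in noCRS. Replicate 2 was the highest and the other 3 CRS libraries lay below all noCRS libraries (edgeR adjusted p = 0.952). Dcc, the attractive netrin receptor (chromosome 18, 71253634 to 72351069, minus strand), measured 3.11, 13.0, 0.594 and 9.98 CPM in CRS and 15.03, 19.1 and 24.9 CPM in noCRS. It was lower in all CRS libraries (log2 fold change -1.56 ± 0.89 SE, edgeR adjusted p = 0.544). Repulsive netrin receptors overlapped between the groups. Unc5b measured 15.8, 21.996, 11.9 and 4.33 CPM in CRS and 17.5, 8.64 and 14.1 CPM in noCRS, and Unc5c averaged 35.5 ± 6.14 CPM in CRS and 29.7 ± 6.63 CPM in noCRS. Unc5d, known from upper-layer cortical neurons, had 79, 0, 84 and 152 counts in CRS and 7, 0 and 0 counts in noCRS (edgeR adjusted p = 0.405).

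Ntng1, a lipid-anchored netrin-G that organises axons and synapses through its partner Lrrc4c rather than through Dcc, measured 19.4, 0.624, 3.73 and 9.15 CPM in CRS and 0.531, 0.995 and 1.26 CPM in noCRS. CRS replicate 2 lay within the noCRS range and the other 3 CRS libraries above it (log2 fold change 3.14 ± 1.23 SE, edgeR adjusted p = 0.292). Without CRS replicate 1, the highest, the log2 fold change was 2.27 (edgeR adjusted p = 0.57). Ntng2 had its counts mainly in noCRS, with 0, 30, 0 and 4 counts in CRS and 149, 41 and 0 counts in noCRS, and another gene on its strand overlaps 14% of its exons. In this family of 10 tested genes, edgeR and limma-voom each called 0. Ntng1 was called by DESeq2 and was the 1 gene with an unadjusted p below 0.05 in edgeR.

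**Figure D4:**
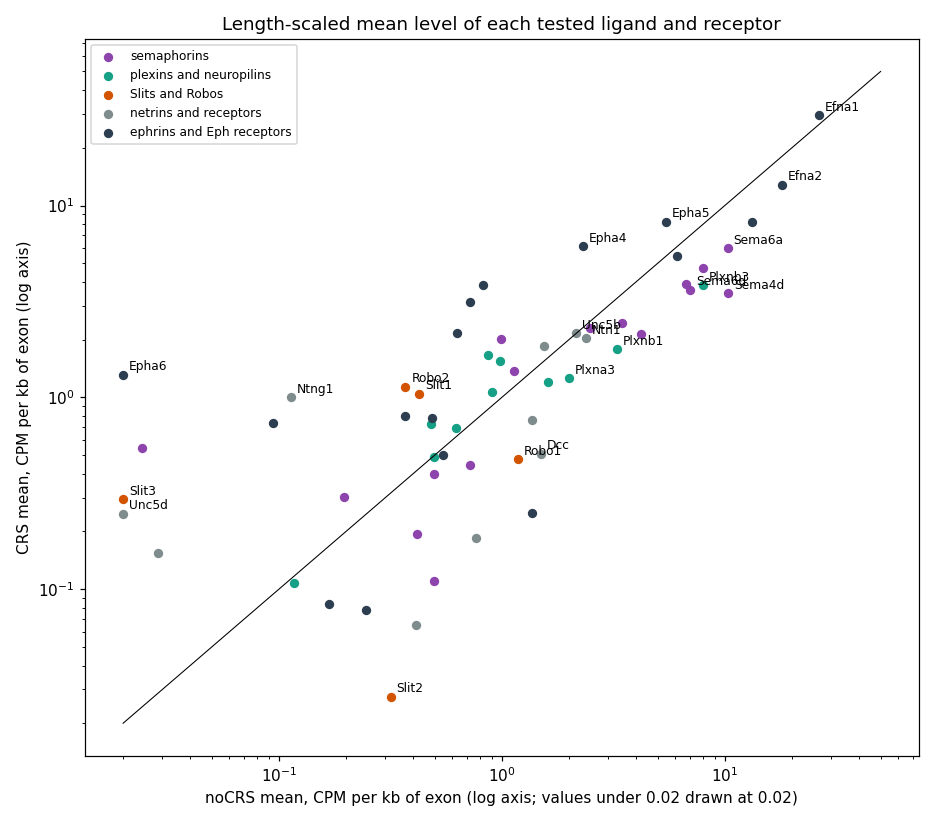
Mean CPM per kb of exon in CRS (y axis) and noCRS (x axis) for the 59 tested ligands and receptors, coloured by family, both axes logarithmic, with the line of equal level and values under 0.02 drawn at 0.02. Efna1 and Efna2 have the highest levels, Epha4 and Epha5 lie above the line, and Sema6a, Sema4d, Sema6d and Plxnb3 lie below it.

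Summed over families, the 37 ligands came to 87.5 to 107 CPM per kb in CRS and 102 to 121 in noCRS, and the 34 receptors to 43.3 to 59.9 in CRS and 49.0 to 55.1 in noCRS, both with overlap. Of 19 classes, 5 had sums that did not overlap, EphA higher and class 4 and class 6 semaphorins, plexin B and EphB lower in CRS. Among the 5 families, only the semaphorin sum did not overlap. Sums were not tested, and the share without overlap among comparable sums of other genes was not computed.

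The 14 members outside the test had counts in few libraries or in none. Sema3g, Plxna4os1 and Plxna4os2 had no count in any library. A further 6 had counts in CRS alone, of which Epha3 had 311 counts, all in CRS replicate 4, and 1, Ephb4, had counts in noCRS alone, with 119 and 23 in replicates 1 and 2. CRS replicate 4 held counts of 9 of the 14. Epha8 had 12 counts, all in CRS replicate 1. Epha3 and Epha8 thus had no count in noCRS, as was so for Epha6, but each had counts in only 1 CRS library. CRS had 4 libraries against 3 in noCRS, and the share of all untested genes with counts in CRS alone was not computed. Robo3 and Robo4, 0.6 kb apart on chromosome 9, had 25 and 20 counts in CRS replicate 4, and Robo4 had 56 in CRS replicate 3 and 1 in noCRS replicate 1. Beside Efna1 on chromosome 3, Efna3 averaged 1.90 ± 1.13 CPM in CRS and 1.18 ± 0.584 CPM in noCRS, and Efna4 had 5 counts, all in CRS replicate 4.

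Among 62 other guidance genes, Chn1, Rtn4 and Pak1 passed the test, all higher in CRS. This list held 17 further ligands and co-receptors, with Rtn4, and 45 cytoplasmic effectors, with Chn1 and Pak1. Of its 60 tested genes, edgeR called these 3, against 2.3% of all genes. At an unadjusted p below 0.05 there were 16 (12 higher and 4 lower), 26.7% against 13.6% of all genes, and the median log2 fold change was 0.08 against -0.02. Whether the shares differ between this list and the members was not tested. Chn1, which encodes alpha-chimaerin, a Rac inhibitor that acts below EphA4, rose to 829.8, 677, 618 and 884 CPM in CRS, against 102, 66.9 and 113 CPM in noCRS. All CRS libraries were several-fold above all noCRS libraries (log2 fold change 3.003 ± 0.24 SE, edgeR adjusted p = 0.00132).

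Rtn4, the Nogo membrane protein, rose to 286, 227, 268 and 296 CPM in CRS, against 91.4, 139 and 112 CPM in noCRS (log2 fold change 1.24 ± 0.19 SE, edgeR adjusted p = 0.0175). Pak1, a kinase activated by Rac and Cdc42, rose to 406, 347, 369 and 338 CPM in CRS, against 148, 177 and 213 CPM in noCRS (log2 fold change 1.03 ± 0.17 SE, edgeR adjusted p = 0.0225). Leaving out any 1 of noCRS replicates 1 and 3 and CRS replicates 1, 3 and 4 ended the Rtn4 call (edgeR adjusted p up to 0.082). For Pak1 the same held of noCRS replicates 1 and 2 and CRS replicates 1, 3 and 4 (up to 0.115), and of library totals alone (0.0547). Cfl1, the actin-severing protein cofilin, averaged 899.7 ± 132 CPM in CRS and 564 ± 30.1 CPM in noCRS, and Cdk5 averaged 125 ± 12.2 CPM in CRS and 80.5 ± 6.55 CPM in noCRS, both without overlap and short of the threshold (edgeR adjusted p = 0.0727 and 0.113). The pan-neuronal marker sums given above were also higher in every CRS library, and the part of neuronal RNA in these genes' levels was not tested.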

How the data were processed

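RNA-seq libraries of 4 CRS and 3 noCRS samples were analysed. The authors deposited whole-number counts by gene, not normalized. FastQC, HISAT, featureCounts, DESeq2 and HISAT2 are named in the submitters' processing notes, with GRCm38 as the build. Per the file headers the columns end as default output names of another aligner, STAR, so the aligner was not settled. Strand and multiply aligned reads are not described in the sources used here, and reads of overlapping genes or close paralogs are uncertain. Levels per kilobase used the exon length that the authors deposited beside the counts. All 74 members matched GENCODE M21 by symbol, with the same start and end.

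The test was that of edgeR 4.0.16 under R 4.3.3 (default expression filter, TMM, quasi-likelihood, Benjamini-Hochberg over 17833 genes, threshold 0.05). Each SE of a log2 fold change was worked back, as its absolute value over the square root of the F statistic. Alternatives were DESeq2 1.42.0, limma-voom (limma 3.58.1), 2 scalings, 2 filters, a replicate block and each library left out. Named members were any past the threshold and those with unadjusted p below 0.05. The 3 of smallest p and the 2 most abundant per length in each of 5 families were also named. From the list of other guidance genes, those called and the 5 of smallest p were named. This gave 21 members and 5 other guidance genes in all. Other genes, class sums and their subsets were chosen after values were seen. The members and lists were chosen with earlier results of these data known. The smallest chi-square per gene between 2 libraries was 93.6, so none were duplicates. The edgeR fit alone was tried on simulated counts. Its pass conditions covered a spread between libraries well below that of these data, and recovery at the spread seen here is not given.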

Additional observations from a re-analysis of the deposited data

Results flagged for a closer look

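A Dixon test over the 4 CRS libraries was applied to 47 groups of values. These were 21 named members, 5 other guidance genes and the family and class sums with more than 1 gene. Of the 47 groups, 3 had a library far from the others, where chance gives about 1 in 20 groups. Ntn1 stood at 33.4 CPM in CRS replicate 2, with the next highest CRS library at 7.26 CPM. Slit2 stood at 2.79 CPM in CRS replicate 4, with no count in the other 3 CRS libraries. The EphB sum stood at 3.65 CPM per kb in CRS replicate 2, with the next lowest CRS library at 12.3 CPM per kb.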

How the results depend on the processing

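EdgeR called 0 members under every scaling, filter and left-out library and under the block. DESeq2 called 4 higher and 1 lower, with 14 of 66 members at an unadjusted p below 0.05. It called 11 of the other guidance genes and 1631 of all genes, against 410 in edgeR. With limma-voom, 14 of 60 members had an unadjusted p below 0.05, and 5 of the other guidance genes and 639 of all genes were called. That count of members was 10 with library totals alone and 10 with all genes of at least 1 count. Library totals gave a median log2 fold change of all genes of -0.17, against -0.02 with TMM, and 79.5% of called genes higher, against 90%. Leaving out single libraries gave 142 to 352 called genes, 1 to 3 of them other guidance genes. It gave 3 to 9 members at an unadjusted p below 0.05 and 13 to 20 members without overlap. The shares of all genes at an unadjusted p below 0.05 and without overlap were taken in the main edgeR fit alone. Member counts by these criteria in the other settings therefore have no background to be set against. The member median stayed between -0.33 and 0.16. Same-numbered samples did not deviate together (r = 0.015, -0.0032 and 0.023), and not every sample correlated best with its own number. With the replicate block 12 of all genes and 0 of the other guidance genes were called. Directions turned for Unc5b (-0.0084 with DESeq2, -0.49 with limma-voom, -0.017 with DESeq2 size factors, -0.15 with library totals, -0.0085 with the 1 CPM filter, and -0.35 to 0.28 over left-out libraries), Slit1 (-0.12 with limma-voom), Efna1 (-0.021 to 0.40 over left-out libraries) and Ntn1 (-1.36 to 0.035). The cause was not tested. Of the 60 tested members, 27 had a 0 in at least 1 library. With 39965667 and 39740623 counts, noCRS replicate 1 and CRS replicate 4 held 54 and 69 of the 74 members. Whether depth accounts for the zeros was not tested.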
